A study of Mus musculus with 9 samples.

Results

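Regulatory T (Treg) cells, the Foxp3-dependent lymphocytes that restrain immune responses, leave a resting state and take on an effector or tissue program under a small set of regulators and surface molecules. The genes described here are 10 of that program, namely Prdm1, Irf4, Batf, Nfil3, Id2 and Pparg, which encode transcription regulators, Il1rl1, Klrg1 and Ccr8, which encode surface receptors, and Areg, which encodes a secreted ligand. They were taken by symbol from a table of 54232 genes, each symbol matched 1 row, and all 10 were among the 14994 genes that passed the filter on low counts. RNA came from spleen Treg cells sorted by a YFP reporter of Foxp3, in 9 mouse libraries of 3 genotypes with 3 each: wild type (WT), Usp21 Treg KO (Usp21 KO below), and Usp21/Usp22 Treg KO (dKO below). Usp21 and Usp22 are deubiquitinases, enzymes that remove ubiquitin from proteins, and the labels give no treatment. The Cre driver or deleted exons, strain, age and sex of the mice are not given in the sources used here, and no group lacked Usp22 alone, so differences between the mouse lines and the gene losses cannot be told apart. The labels number the libraries as biological samples, so p-values measure the spread between those samples.

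In resting Treg cells, T cell receptor signals induce IRF4 and BATF, and these factors bind DNA together and drive effector genes. Prdm1 (Blimp-1) marks Treg cells that have completed that step, and Pparg and the IL-33 receptor chain encoded by Il1rl1 (ST2) are best known from Treg cells of adipose and other non-lymphoid tissue. Such cells also carry KLRG1 and CCR8 and can release amphiregulin, the repair factor encoded by Areg.

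The libraries held 18067377 to 40334577 counts each, and levels are given as CPM, counts relative to the library's total after scaling by TMM factors. Usp21 stood at 60.8 to 66.2 CPM in WT, 23.1 to 28.1 in Usp21 KO and 26.1 to 29.1 in dKO, and Usp22 at 69.4 to 72.8, 64.8 to 82.1 and 21.6 to 28.7 CPM, each lower where the genotype names its loss. Reads from any exons left undeleted are part of these values. Foxp3 stood at 622 to 689 CPM in WT, 669 to 828 in Usp21 KO and 300 to 372 in dKO. The T cell genes Cd4 and Cd3e stood at 1051 or more and 489.5 or more CPM in every library. Markers of other cells were present in every library. The summed plasma cell markers exceeded Foxp3 in Usp21 KO libraries 2 and 3 (1084 and 1075 CPM). They also exceeded it in dKO libraries 1, 2 and 3 (706, 509 and 807 CPM). The immunoglobulin gene Igha alone gave 977 and 957 CPM of the former sums and 610, 416 and 672.5 CPM of the latter. The summed macrophage and monocyte markers exceeded Foxp3 in dKO libraries 1 and 3 (743 and 542 CPM), of which Lyz2 alone gave 623 and 455 CPM. Such sums set beside 1 gene do not give numbers of cells. In the program genes 1 library, Usp21 KO library 2, stood apart from its group. Results that rest on it are therefore given with and without it, as are those that rest on WT library 2. The fit without both was chosen after these values were seen. In bulk RNA, a larger share of cells in the effector state and more RNA per cell cannot be told apart.

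None of the 10 genes passed in any of the 3 comparisons by edgeR's quasi-likelihood test, with Benjamini-Hochberg adjusted p under 0.05 over all 14994 genes as the threshold. For Usp21 KO against WT the count was 0 of 10 beside 0.0133% of all genes, for dKO against WT 0 of 10 beside 5.78%, and for dKO against Usp21 KO 0 of 10 beside 4.9%. At an unadjusted p under 0.05, Pparg differed in Usp21 KO against WT, Irf4 and Areg in dKO against WT, and Pparg and Areg in dKO against Usp21 KO, or 1, 2 and 2 of the 10 beside 10.6%, 22.4% and 23.6% of all genes. DESeq2, as another test of the same counts, passed those same genes, 1, 2 and 2 of the 10, beside 1.46%, 10.5% and 11.5% of all genes.

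**Figure D1:**
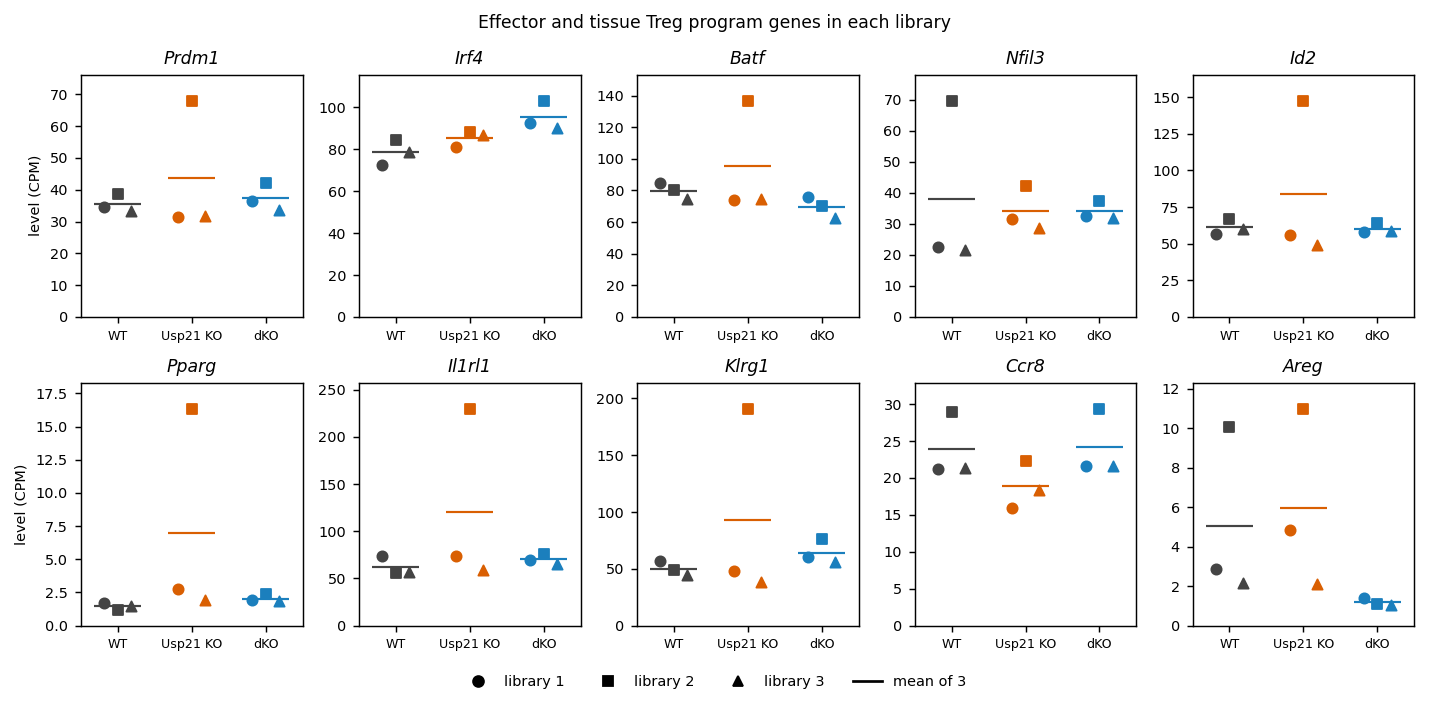
Level of each of the 10 genes in each library, in CPM on linear axes that start at 0, with the group on the x axis, the marker shape giving the library number and the line the mean of the 3 libraries. Usp21 KO library 2 is the highest of the 9 libraries in 7 genes.

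Irf4, the interferon regulatory factor that pairs with BATF, had its 3 highest levels in the dKO libraries, a difference that did not pass by edgeR. It stood at 72.6, 84.5 and 78.9 CPM in WT, at 81.1, 88.4 and 87.0 CPM in Usp21 KO and at 92.5, 103 and 90.05 CPM in dKO. All 3 dKO libraries lay above all WT and all Usp21 KO libraries. Groups that do not overlap were found in 35.9% of all genes for dKO against WT and in 27.4% for dKO against Usp21 KO. The log2 fold change was 0.28 ± 0.08 (SE) for dKO against WT (edgeR adjusted p = 0.0703) and 0.16 ± 0.08 for dKO against Usp21 KO (adjusted p = 0.259). The first of these passed by DESeq2 (adjusted p = 0.0243), with library totals as the only scaling (0.0212) and in the edgeR fit of the 6 WT and dKO libraries alone (0.0229). It did not pass in any edgeR fit without 1 library (0.0824 to 0.242) or with the replicate number as a block (0.0551), whereas the block in the 6 libraries alone gave an adjusted p of 0.00673. Without both WT library 2 and Usp21 KO library 2 it was 0.34 and passed (adjusted p = 0.0115). In the same order of libraries the summed plasma cell markers, a cell type that also carries Irf4, stood at 121, 42.1 and 217 CPM in WT, at 193, 1084 and 1075 CPM in Usp21 KO and at 706, 509 and 807 CPM in dKO. Igha alone gave 87.9, 31.2 and 170 CPM of these in WT, 171, 977 and 957 CPM in Usp21 KO and 610, 416 and 672.5 CPM in dKO. The 6 proliferation genes summed to 200.4, 208 and 257 CPM in WT, 291, 551 and 319.5 CPM in Usp21 KO and 608, 535.5 and 559.7 CPM in dKO, and 5 of the 6 rose in dKO against WT. Their part in the Irf4 levels was not tested. Irf4 (ENSMUSG00000021356) lies on mm10 chromosome 13 at 30749226 to 30766976, and the 250 bases before its RefSeq start (chr13:30748983-30749232, plus strand, GRCm38.p6) are shown because it is the transcription factor gene whose dKO libraries stood apart from both other groups. The window held no match to any motif described below.
Irf4: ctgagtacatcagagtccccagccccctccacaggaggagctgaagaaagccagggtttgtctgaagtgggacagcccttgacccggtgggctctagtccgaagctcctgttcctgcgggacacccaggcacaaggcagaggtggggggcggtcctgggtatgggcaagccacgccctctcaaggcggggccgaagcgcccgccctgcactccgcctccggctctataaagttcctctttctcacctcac

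Batf, the AP-1 family partner of IRF4, did not share that pattern. It stood at 84.6, 80.2 and 74.8 CPM in WT, at 74.2, 137 and 74.6 CPM in Usp21 KO and at 76.1, 70.3 and 62.3 CPM in dKO. The high value is Usp21 KO library 2, and dKO overlapped WT. Batf gave a log2 fold change of 0.25 ± 0.23 for Usp21 KO against WT (edgeR adjusted p = 0.726) and -0.20 ± 0.23 for dKO against WT (adjusted p = 0.654). Without Usp21 KO library 2 the first was -0.11, the opposite sign.

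Prdm1 encodes Blimp-1, a zinc finger repressor of effector lymphocytes. It stood at 34.4, 38.5 and 33.4 CPM in WT, at 31.4, 68.1 and 31.9 CPM in Usp21 KO and at 36.4, 42.1 and 33.7 CPM in dKO. Usp21 KO library 2 was 2.15 times the mean of the other Usp21 KO libraries, while those others were the lowest of all 9 libraries. For Prdm1 the log2 fold change in Usp21 KO against WT was 0.30 ± 0.28 with all libraries (edgeR adjusted p = 0.742) and -0.17 without Usp21 KO library 2 (adjusted p = 0.672). For dKO against WT it was 0.07 ± 0.28 (adjusted p = 0.907). Prdm1 (ENSMUSG00000038151) lies on chromosome 10 at 44437177 to 44528501. The 250 bases before its RefSeq start (chr10:44458749-44458998, minus strand, GRCm38.p6) are shown because this was the window among those of the 10 genes with a match to the AP-1 motif TGANTCA, which BATF and JUN proteins can bind. The match is in capitals and lies 48 to 42 bases before the start.
Prdm1: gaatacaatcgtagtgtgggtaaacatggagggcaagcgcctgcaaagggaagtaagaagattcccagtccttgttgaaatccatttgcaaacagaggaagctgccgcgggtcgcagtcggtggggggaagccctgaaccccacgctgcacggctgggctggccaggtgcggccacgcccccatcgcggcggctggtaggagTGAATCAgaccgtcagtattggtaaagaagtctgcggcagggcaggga

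Id2 encodes an inhibitor of E proteins, which it keeps from binding their E-box sites. It stood at 56.9, 67.1 and 59.7 CPM in WT, at 55.8, 148 and 48.8 CPM in Usp21 KO and at 58.3, 64.1 and 58.4 CPM in dKO. Apart from Usp21 KO library 2, at 2.83 times its group mates, the 8 libraries spanned 48.8 to 67.1 CPM with the groups overlapping. Id2 gave a log2 fold change of 0.46 ± 0.39 for Usp21 KO against WT (edgeR adjusted p = 0.715), -0.23 without Usp21 KO library 2 (adjusted p = 0.419), and -0.02 ± 0.39 for dKO against WT (adjusted p = 0.98).

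Pparg, the fatty acid sensing nuclear receptor of adipose Treg cells, was the scarcest of the 10 in WT. Its counts were 36, 33 and 58 in WT, 101, 341 and 34 in Usp21 KO and 62, 49 and 62 in dKO, which gave 1.71, 1.22 and 1.47 CPM, 2.80, 16.3 and 1.92 CPM, and 1.90, 2.39 and 1.82 CPM. Every Usp21 KO and every dKO library lay above every WT library. Groups without overlap, in either direction, were found in 16.1% of all genes for Usp21 KO against WT and in 35.9% for dKO against WT. The spread within Usp21 KO was far wider than in WT (7.01 ± 8.06 CPM against 1.47 ± 0.249, mean ± SD, n = 3 each). The log2 fold change for Usp21 KO against WT was 2.25 ± 0.75 (edgeR adjusted p = 0.348, DESeq2 adjusted p = 0.034), and 0.70 without Usp21 KO library 2 (adjusted p = 0.452). For dKO against WT it was 0.47 ± 0.75 (adjusted p = 0.756). For dKO against Usp21 KO it was -1.78 ± 0.73 (adjusted p = 0.186, DESeq2 adjusted p = 0.0418), and -0.22 without Usp21 KO library 2 (adjusted p = 0.663).

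Nfil3 encodes a basic leucine zipper repressor, and its high library was a WT one. It stood at 22.7, 69.8 and 21.4 CPM in WT, at 31.5, 42.2 and 28.6 CPM in Usp21 KO and at 32.7, 37.3 and 31.99 CPM in dKO. WT library 2 was 3.16 times the mean of the other WT libraries, and these others were the 2 lowest of the 9. The 6 libraries of the knockout groups lay between them, at 28.6 to 42.2 CPM. Nfil3 gave a log2 fold change of -0.16 ± 0.45 for dKO against WT (edgeR adjusted p = 0.867). It was 0.62, of opposite sign, without WT library 2 (adjusted p = 0.0818), and 0.64 without both WT library 2 and Usp21 KO library 2 (adjusted p = 0.000955). The omission of both was chosen after these values were seen, and in that fit 930 of all genes rose and 882 fell. For Usp21 KO against WT the log2 fold change was -0.15 ± 0.45 (adjusted p = 0.931) and 0.63 without WT library 2 (adjusted p = 0.553). Nfil3 (ENSMUSG00000056749) lies on chromosome 13 at 52967209 to 52981073. Its upstream window (chr13:52981040-52981289, minus strand, GRCm38.p6) is shown beside that of Areg below, because these were the genes over 2-fold above both group mates in WT library 2. It held an E-box and no match to the other motifs.
Nfil3: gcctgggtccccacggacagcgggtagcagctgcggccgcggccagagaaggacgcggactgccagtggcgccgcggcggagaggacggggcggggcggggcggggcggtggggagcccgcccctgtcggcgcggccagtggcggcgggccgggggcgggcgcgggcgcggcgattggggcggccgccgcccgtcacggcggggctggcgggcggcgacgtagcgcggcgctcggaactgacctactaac

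Among the receptors, Il1rl1 encodes ST2, the chain that binds the alarmin IL-33. It stood at 73.4, 55.8 and 56.7 CPM in WT, at 73.5, 229 and 59.0 CPM in Usp21 KO and at 69.5, 75.6 and 65.2 CPM in dKO. Usp21 KO library 2 was 3.46 times its group mates, which lay within or next to the WT range. Il1rl1 gave a log2 fold change of 0.96 ± 0.48 for Usp21 KO against WT (edgeR adjusted p = 0.533) and 0.10 without Usp21 KO library 2 (adjusted p = 0.885). For dKO against WT it was 0.18 ± 0.48 (adjusted p = 0.863).

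Klrg1, an inhibitory receptor for cadherins, behaved alike in that library. It stood at 56.8, 48.8 and 44.9 CPM in WT, at 48.5, 190.5 and 38.8 CPM in Usp21 KO and at 60.4, 76.1 and 55.8 CPM in dKO. Usp21 KO library 2 was 4.37 times its group mates, 1 of which was the lowest of the 9 libraries, and dKO library 3 overlapped WT. The log2 fold change for Usp21 KO against WT was 0.88 ± 0.58 (edgeR adjusted p = 0.619) and -0.20 without Usp21 KO library 2 (adjusted p = 0.764). For dKO against Usp21 KO it was -0.53 ± 0.57 (adjusted p = 0.631). Without Usp21 KO library 2 that difference changed sign to 0.56 and passed (adjusted p = 0.0461, beside 14.1% of all genes in that fit), the 1 call among the 10 genes in any edgeR fit that left out a single library. For dKO against WT it was 0.35 ± 0.57 (adjusted p = 0.765), and with the replicate block in the 6 libraries alone 0.36 (adjusted p = 0.0184).

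Ccr8, the receptor for the chemokine CCL1 on tissue and tumour Treg cells, was within the range of the other groups in Usp21 KO library 2. It stood at 21.2, 29.0 and 21.4 CPM in WT, at 16.0, 22.3 and 18.4 CPM in Usp21 KO and at 21.7, 29.3 and 21.6 CPM in dKO. Usp21 KO libraries 1 and 3 were the lowest of the 9, and WT and dKO spanned nearly the same range. Ccr8 gave a log2 fold change of -0.34 ± 0.18 for Usp21 KO against WT (edgeR adjusted p = 0.525) and 0.36 ± 0.18 for dKO against Usp21 KO (adjusted p = 0.252). The second was 0.52 and passed without both WT library 2 and Usp21 KO library 2 (adjusted p = 0.0227), and 0.51 without the latter alone (adjusted p = 0.0799).

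Areg encodes amphiregulin, a ligand of the EGF receptor that Treg cells release in tissue repair, and it had the lowest values in the dKO. Its counts were 60, 272 and 86 in WT, 175, 229 and 37 in Usp21 KO and 45, 22 and 36 in dKO. These gave 2.86, 10.03 and 2.18 CPM in WT, 4.85, 10.9 and 2.08 CPM in Usp21 KO and 1.38, 1.07 and 1.06 CPM in dKO. All 3 dKO libraries lay below all 6 others. Groups without overlap, in either direction, were found in 35.9% of all genes for dKO against WT and in 27.4% for dKO against Usp21 KO. The dKO libraries spread far less (1.17 ± 0.183 CPM against 5.02 ± 4.35 in WT and 5.96 ± 4.53 in Usp21 KO, mean ± SD, n = 3 each). The log2 fold change was -2.09 ± 0.75 for dKO against WT (edgeR adjusted p = 0.151, DESeq2 adjusted p = 0.0122) and -2.34 ± 0.75 for dKO against Usp21 KO (adjusted p = 0.11, DESeq2 adjusted p = 0.00378). The size rests in part on the high libraries. Without WT library 2 the first was -1.09 (adjusted p = 0.393), without Usp21 KO library 2 the second was -1.57 (adjusted p = 0.227), and without both they were -1.07 (adjusted p = 0.0643) and -1.56 (adjusted p = 0.00752). Areg (ENSMUSG00000029378) lies on chromosome 5 at 91139599 to 91148432. In its upstream window (chr5:91139349-91139598, plus strand, GRCm38.p6) the capitals mark the match to TGANNTCA, the spaced palindrome of cyclic AMP response elements, 61 to 54 bases before the start.
Areg: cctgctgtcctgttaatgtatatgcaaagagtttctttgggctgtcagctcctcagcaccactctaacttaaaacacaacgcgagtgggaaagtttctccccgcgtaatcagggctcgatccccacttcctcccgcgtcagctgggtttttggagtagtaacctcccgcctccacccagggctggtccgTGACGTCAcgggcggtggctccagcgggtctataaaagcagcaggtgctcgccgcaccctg

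RefSeq windows of GRCm38.p6 were at hand for 9 of the 10 genes, 12 windows in all since Pparg has 3 and Il1rl1 has 2. Klrg1 was not matched. Both strands of the 250 bases before each start were searched for the AP-1 motif TGANTCA, the IRF (ISRE-like) motif, 2 spacings of the AP-1-IRF composite element, the NFIL3 motif TTANNTAA, the E-box CANNTG, the direct repeat bound by PPARG with RXR and, chosen after the Areg sequence was seen, TGANNTCA. The composites contain the AP-1 letters. AP-1 was found in 1 of 12 windows (Prdm1), beside 6.75% of all 32851 windows. The NFIL3 motif was in 1 (Pparg, beside 5.43%), as the letters TTATATAA, 28 to 21 bases before that start. TGANNTCA was in 1 (Areg, beside 11.9%) and the E-box in 9 (beside 66.2%). The IRF motif (2.98% of all windows), the composites (0.198%) and the direct repeat (0.0335%) were in none of the 12. A match describes letters in the window and is not a measured binding site, and its absence says nothing of the factor.

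**Figure D2:**
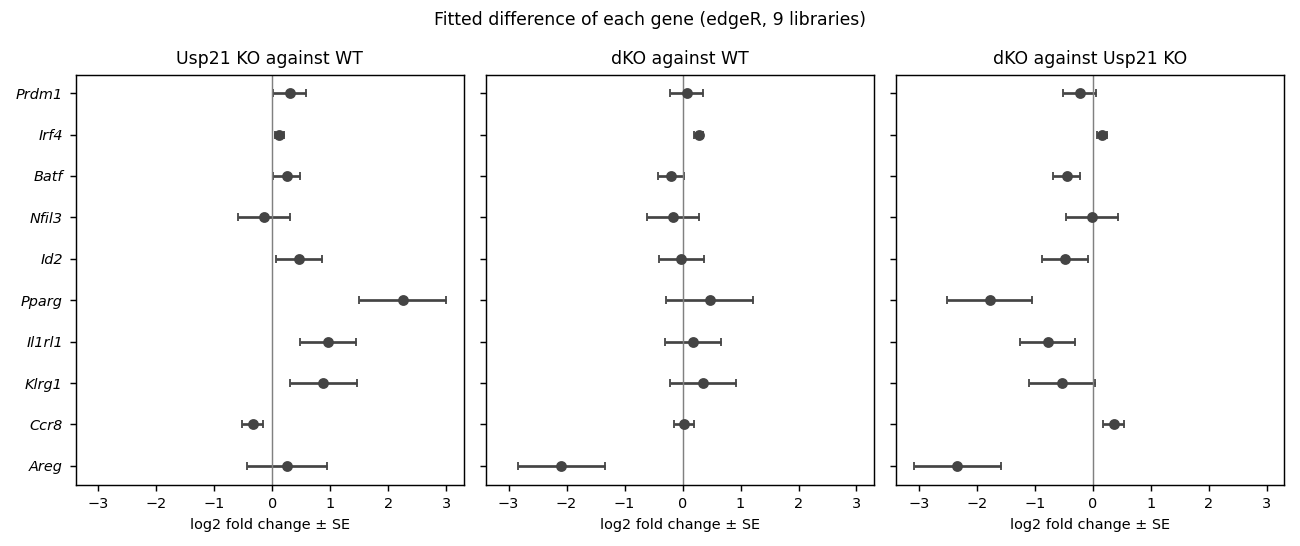
Log2 fold change of each gene with its standard error (x axis) in the 3 comparisons, from the edgeR fit of all 9 libraries. Irf4 has the narrowest interval in each panel, and Pparg and Areg have the widest.

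Across the 10 genes, the direction against WT in Usp21 KO turned on Usp21 KO library 2 and in part on WT library 2. With all libraries 8 of 10 had a positive log2 fold change, with a median of 0.28 (0.01 over all 14994 genes). Without Usp21 KO library 2 there were 3 of 10, with a median of -0.19. Without WT library 2 there were 9 of 10 (median 0.58), and without both 5 of 10 (median -0.04). In dKO against Usp21 KO the median was -0.47 with 2 of 10 positive, and without Usp21 KO library 2 it was 0.19 with 7 of 10 positive. For dKO against WT the median was 0.05 with 6 of 10 positive, and 0.16 with 8 of 10 positive without WT library 2. Usp21 KO library 2 is in neither of these groups. It still enters the spread shared by all 9 libraries, and so the SE and p-values of this comparison. In the 6 WT and dKO libraries alone, 1 of the 10 passed by edgeR (Irf4), beside 15.7% of all genes in that fit. Comparisons that share a group share its libraries, so these counts are not independent of each other.

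**Figure D3:**
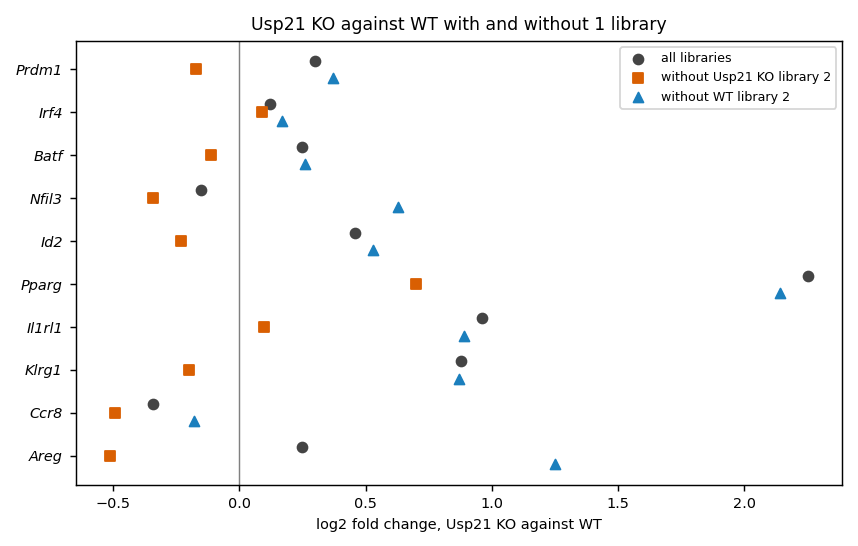
Log2 fold change of Usp21 KO against WT for each gene with all libraries, without Usp21 KO library 2 and without WT library 2. Leaving out Usp21 KO library 2 turned Prdm1, Batf, Id2, Klrg1 and Areg from positive to negative, and leaving out WT library 2 turned Nfil3 from negative to positive.

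Usp21 KO library 2 was the highest of the 9 libraries in 7 of the 10 genes, Prdm1, Batf, Pparg, Il1rl1, Klrg1, Areg and Id2, beside 19.9% of all genes. In 6 of them, all but Batf, it was over 2-fold above both others of its group, beside 5.48% of all genes. The ratio to the mean of its group mates ran from 1.05 for Irf4, 1.30 for Ccr8 and 1.40 for Nfil3 to 6.92 for Pparg, with 1.84 for Batf and 3.16 for Areg. Foxp3 was not raised there, at 693 CPM against 828 and 669 CPM, nor was Usp21, at 23.1 CPM against 28.1 and 25.0. Among lists of related genes drawn up with earlier results of these data known, that library was the highest of 9 in 16 of 23 other effector Treg genes and in 10 of 14 other tissue Treg genes. It was the lowest of 9 in 8 of 9 resting T cell genes, beside 19.9% of all genes. Bach2, a repressor that holds T cells in the resting state, stood at 38.1 CPM against 132 and 138 CPM in its group. The exception in the resting list was Il7r, the interleukin-7 receptor chain, at 473 against 248 and 219 CPM. Gzmb, a granzyme, stood at 72.6 against 16.5 and 10.5 CPM, and Dgat2, an enzyme of triglyceride synthesis, at 57.2 against 9.97 and 5.64. These had the highest ratios to their group mates in the effector and tissue lists. Other genes of these lists lay below the mean of their group mates, with ratios of 0.641 for Il10, 0.771 for Lag3, 0.942 for Ctla4 and 0.933 for Rbpj. Il10 and Ctla4 were the lowest of the 9 libraries there.

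Several summed marker levels of other cells that can carry these genes were alike in Usp21 KO libraries 2 and 3. The summed level of 7 NK and CD8 T cell markers was 41.7, 50.8 and 50.7 CPM in Usp21 KO libraries 1, 2 and 3, beside 48.5, 190.5 and 38.8 CPM for Klrg1. The sum of 4 plasma cell markers was 193, 1084 and 1075 CPM, of which the immunoglobulin gene Igha gave 171, 977 and 957, beside 31.4, 68.1 and 31.9 CPM for Prdm1. The sum of 6 macrophage and monocyte markers was 46.0, 156 and 157 CPM, beside 2.80, 16.3 and 1.92 CPM for Pparg. Of these, Lyz2 gave 21.6, 97.8 and 113 CPM and Csf1r 8.75, 25.7 and 26.0 CPM. The others were highest of their group in library 2: Vcam1 (5.12, 14.4 and 4.28 CPM), C1qa (3.10, 4.54 and 2.65), Adgre1 (1.27, 4.16 and 2.54) and Cd68 (6.18, 9.75 and 8.40). Their part in the Pparg levels was not tested. The sum of 5 B cell markers was 22.3, 35.7 and 36.0 CPM. The sum of 8 markers of type 2 innate lymphoid cells, mast cells and basophils, which also carry ST2, was 3.82, 14.0 and 6.76 CPM, beside 73.5, 229 and 59.0 CPM for Il1rl1, and no marker of these lists was at 0 in all 9 libraries. The sum of 6 proliferation genes was 291, 551 and 319.5 CPM, and that of 4 erythroid genes 29.4, 34.5 and 17.1 CPM. The sums of proliferation, erythroid and innate lymphoid, mast cell and basophil genes were thus also highest of their group in that library, and their part in the result was not tested.

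**Figure D4:**
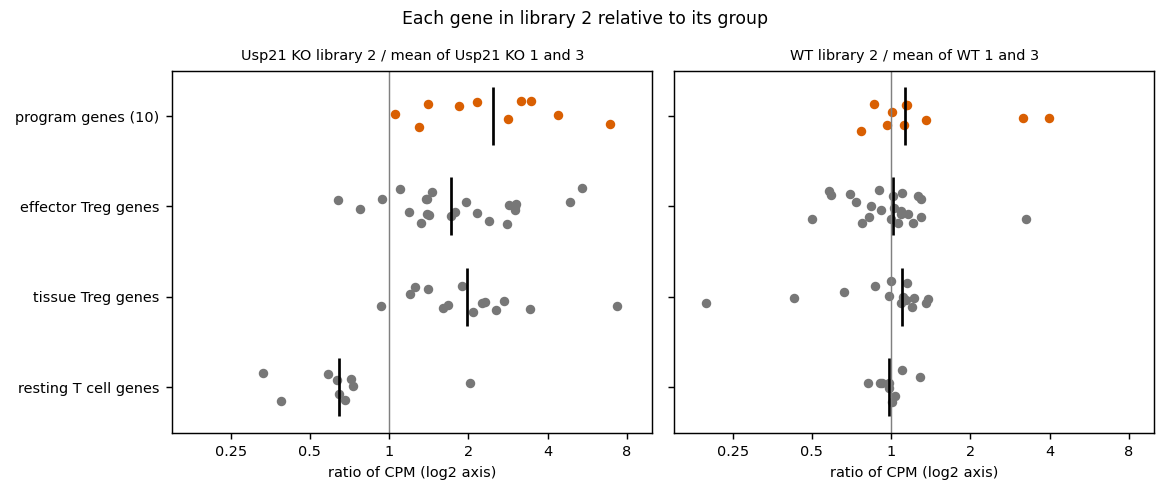
Ratio of the level in library 2 to the mean of libraries 1 and 3 of the same group, on a log2 axis, for each gene of 4 lists, with Usp21 KO on the left, WT on the right and the black line at the median. In Usp21 KO the median was 2.49 for the 10 program genes, 1.72 for other effector Treg genes, 1.98 for other tissue Treg genes and 0.646 for resting T cell genes, against 0.994 over all genes, and in WT the medians were 1.126, 1.02, 1.10 and 0.984 in the same order.

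WT library 2 stood apart in Areg and Nfil3 alone among the 10, each over 2-fold above both of its group mates, beside 1.98% of all genes. Of the list of 18 measured partners of the transcription factors, Jun, Junb and Id1 were likewise over 2-fold above both, and of the 23 effector Treg genes Il10 was. Jun and Junb encode AP-1 proteins that dimerise with BATF. Jun stood at 647, 1556 and 568 CPM in WT, at 1173, 534 and 519 CPM in Usp21 KO and at 420.5, 435 and 319.7 CPM in dKO. Its highest levels were in WT library 2 and Usp21 KO library 1, and Areg in the latter stood at 4.85 CPM, above 2.08 CPM in Usp21 KO library 3. Usp21 KO library 2, where Areg was highest, had a Jun level within the range of the others. The part of Jun in the Areg levels was not tested. Il10, the suppressive cytokine, stood at 4.05, 13.0 and 3.92 CPM in WT, at 5.65, 3.49 and 5.24 CPM in Usp21 KO and at 11.9, 20.4 and 11.3 CPM in dKO. The marker sums were low in WT library 2, with 39.2 CPM for macrophage and monocyte markers against 185 and 196 CPM, 42.1 CPM for plasma cell markers against 121 and 217, and 19.2 CPM for B cell markers against 36.8 and 40.8. Their part in these levels was not tested.

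**Figure D5:**
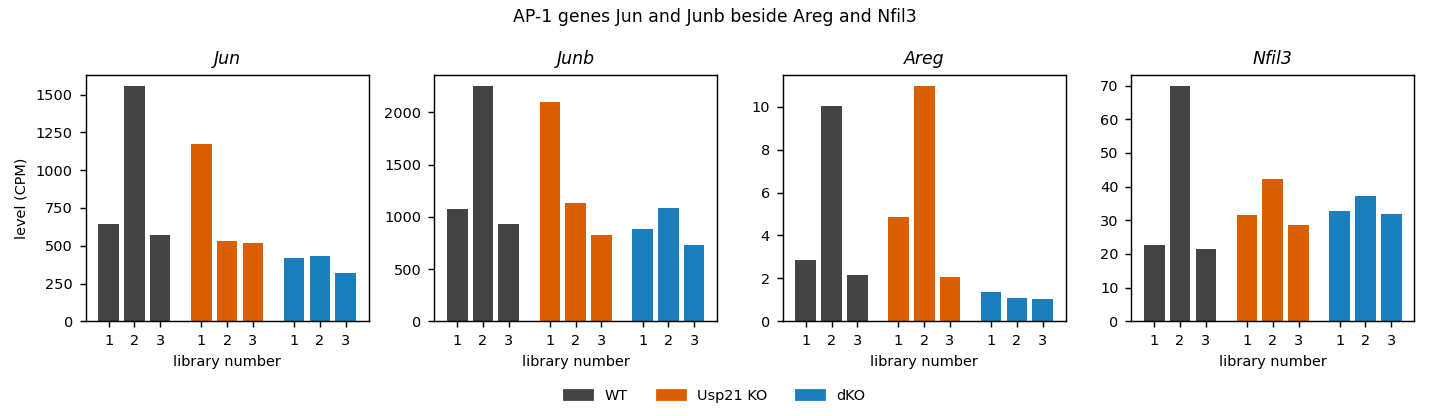
Level of the AP-1 genes Jun and Junb beside Areg and Nfil3 in each library, in CPM on linear axes that start at 0, grouped by genotype. WT library 2 is the highest of the 9 libraries in Jun, Junb and Nfil3, and the dKO libraries are the lowest 3 in Jun and Areg.

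The library numbered 2 was the highest of its 3 in each of the 3 groups for 5 of the 10 genes, Prdm1, Irf4, Nfil3, Id2 and Ccr8, beside 4.28% of all genes. The labels give the shared number no meaning beyond that of a biological sample.

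Other genes of the pathway gave few calls. Of 77 measured genes in 5 lists, 0 passed in Usp21 KO against WT by edgeR (7 at an unadjusted p under 0.05, 1 by DESeq2), beside 0.0133% of all genes. In dKO against WT 2 rose and 0 fell (16 unadjusted, 7 by DESeq2), beside 5.78% of all genes, and in dKO against Usp21 KO 3 rose and 0 fell (28 unadjusted, 15 by DESeq2), beside 4.9%. Ptgir, the prostacyclin receptor gene of the tissue list, rose in dKO against WT from 14.8 to 25.3 CPM (0.77 ± 0.11, adjusted p = 0.00515) and against Usp21 KO from 17.9 CPM (0.50 ± 0.11, adjusted p = 0.0323). The first call held without any 1 of the 6 libraries (adjusted p = 0.0158 to 0.0391), and the second held without Usp21 KO library 2 (0.00298) and was lost without each of the other 5 (0.0717 to 0.106), with the replicate block (0.0592) and in the 6 libraries alone (0.0808). Cd36, a fatty acid transporter that is a known PPARG target, rose in dKO against WT from 0.41 to 2.12 CPM (2.40 ± 0.54, adjusted p = 0.0312), was lost without each of the 6 libraries in turn (0.0524 to 0.126) and stood at an adjusted p of 0.072 with the replicate block. In the 6 WT and dKO libraries alone Cd36 passed without the block (0.00476) and with it (0.000762), and it passed without both WT library 2 and Usp21 KO library 2 (0.0058). Hpgd, which encodes a prostaglandin-degrading enzyme, rose in dKO against Usp21 KO from 2.02 to 6.25 CPM (1.65 ± 0.40, adjusted p = 0.0431), and this held without Usp21 KO library 2 (0.0316) and was lost without each of the other 5 (0.0564 to 0.142), with the replicate block (0.0799) and in the 6 libraries alone (0.0729). Irf8, a relative of IRF4 that can also pair with BATF, rose in dKO against Usp21 KO from 41.1 to 61.2 CPM (0.57 ± 0.11, adjusted p = 0.0228). It held without Usp21 KO library 2 (0.00349) or 3 (0.0104) and was lost without each of the other 4 (0.0605 to 0.0859) and in the 6 libraries alone (0.078). Macrophages and monocytes also carry Cd36, Hpgd and Irf8. Their summed markers stood at 743, 264 and 542 CPM in the dKO libraries. The WT sums were 39.2 to 196 CPM and the Usp21 KO sums 46.0 to 157 CPM. Lyz2 alone made up 623, 212 and 455 CPM of the dKO sums. Of the 6 markers, 4 had a positive log2 fold change in each dKO comparison and 2 a negative one. C1qa and Vcam1 had lower dKO means, of 1.77 and 4.73 CPM. Their WT means were 2.85 and 5.81 CPM, and their Usp21 KO means 3.43 and 7.95 CPM. The part of these cells in the rises was not tested.

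By list, the 23 effector Treg genes held 0 calls in each comparison by edgeR (3, 6 and 5 at an unadjusted p under 0.05 and 0, 1 and 4 by DESeq2, taking Usp21 KO against WT first, then the dKO against WT, then the dKO against Usp21 KO). Their median log2 fold changes were 0.21, 0.24 and -0.04. In that order of comparisons, the smallest p-values belonged to the chemokine receptor gene Ccr6 (1.23 ± 0.42, adjusted p = 0.373), the transcription factor gene Myb (0.28 ± 0.09, adjusted p = 0.104) and the TNF receptor gene Tnfrsf1b (-0.43 ± 0.13, adjusted p = 0.082). Without Usp21 KO library 2, 8 of the 23 rose and 3 fell in dKO against Usp21 KO, beside 14.1% of all genes called in that fit. In the 6 WT and dKO libraries alone, 7 of the 23 rose and 3 fell in dKO against WT (beside 15.7% of all genes), and with the replicate block in those libraries 10 rose and 5 fell (beside 20.1%). The 14 tissue Treg genes had medians of 0.35, 0.01 and -0.19, and 13 of 14 were positive in Usp21 KO against WT, of which Dgat2 (2.09 ± 0.79, adjusted p = 0.42) had the smallest p. Without Usp21 KO library 2 that median was 0.04, with 8 of 14 positive. The 18 partners of the transcription factors had medians of -0.07, -0.01 and -0.08, with Rxra, the dimer partner of PPARG, at 0.51 ± 0.13 in Usp21 KO against WT (adjusted p = 0.276). The 13 partners of the receptors and of amphiregulin had medians of 0.08, -0.06 and -0.14, and 0 calls by edgeR (1, 2 and 4 at an unadjusted p under 0.05, and 0, 1 and 2 by DESeq2). Their smallest p-values, in that order of comparisons, were those of Ccl1, the CCR8 ligand (1.09 ± 0.43, adjusted p = 0.409), of Sigirr, an inhibitor of ST2 signals (-0.23 ± 0.07, adjusted p = 0.0848), and of the phosphatase gene Inpp5d (-0.25 ± 0.07, adjusted p = 0.0597). The 9 resting T cell genes had medians of -0.26, -0.22 and -0.03 and 0 calls by edgeR (0, 0 and 1 at an unadjusted p under 0.05, and 0 in each by DESeq2), while in the 6 WT and dKO libraries alone 3 of the 9 fell in dKO against WT, and 5 of the 9 with the replicate block. All 9 were negative in Usp21 KO against WT, 7 of 9 without Usp21 KO library 2. The smallest p-values were those of S1pr1 in Usp21 KO against WT (-0.33 ± 0.15, adjusted p = 0.485), Satb1 in dKO against WT (-0.33 ± 0.15, adjusted p = 0.227) and Tcf7 in dKO against Usp21 KO (0.33 ± 0.12, adjusted p = 0.139).

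Per kilobase of annotated exon, the order of the levels in WT was Batf (56.8 ± 3.48 CPM per kilobase, mean ± SD, n = 3), Klrg1 (35.5 ± 4.29), Id2 (25.1 ± 2.15), Ccr8 (20.3 ± 3.77), Nfil3 (18.7 ± 13.6), Irf4 (16.1 ± 1.22), Il1rl1 (8.99 ± 1.44), Prdm1 (6.36 ± 0.486), Areg (4.13 ± 3.58) and Pparg (0.497 ± 0.0843). Neighbours from Id2 to Irf4 lay within their summed SD of each other, as did Prdm1 and Areg, and Areg and Pparg. Exon lengths are the merged exons of GENCODE M21, not the transcripts these cells use.

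Over the 9 libraries, the genes most like the mean standardised log2 CPM of the 10 were Tmem154 (Pearson r = 0.981), Colq (0.974), Ttc39c (0.972), Rilpl2 (0.969) and Mapk8ip1 (0.965). These values describe libraries that share 1 extreme point, Usp21 KO library 2, without which r over 8 libraries was 0.902, 0.862, 0.852, 0.942 and 0.8. Ttc39c, for example, stood at 87.7 CPM in that library and at 27.3 to 39.9 CPM in the other 8. Within the 10, r with the mean of the other 9 genes was highest for Prdm1 (0.98) and lowest for Irf4 (0.21) and Ccr8 (0.27). Over the 8 libraries without Usp21 KO library 2 it was 0.88 for Prdm1, 0.75 for Id2 and 0.68 for Nfil3 and Ccr8, but 0.04 for Il1rl1, -0.06 for Areg, -0.07 for Batf and -0.19 for Pparg.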

How the data were processed

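The authors deposited a table of raw counts for Ensembl genes in the 9 libraries. Per the submitters' processing notes, the tools were cutadapt 1.13, STAR, HTSeq 0.6.1p1 and DESeq2 1.14.1, and the build mm10. The strand option and annotation release are not given in the sources used here, and no exon of the 10 genes overlaps another gene in GENCODE M21. Counts were tested with edgeR 4.0.16 in R 4.3.3: filterByExpr by group (14994 genes), TMM factors (0.964 to 1.05), a robust quasi-likelihood fit with genotype alone, all libraries together, and Benjamini-Hochberg adjustment over all genes. Alternatives were DESeq2 1.42.0, other scalings and filters, the 6 libraries of a comparison, the replicate block and leaving out each library. On simulated counts for dKO against WT (14994 genes), the test passed 29.9% of genes with a 1.5-fold change, 56.7% with a 2-fold and 69.7% with a 4-fold one, and 0.0338% of unchanged genes. The simulation changed 67, 67 and 66 genes at these sizes, beside 866 calls in the data, and had no library that stood apart. Its shares are therefore not the power of the tests reported here. Deviations from the group means of libraries with the same number correlated at 0.118 to 0.259 between WT and dKO. Those of libraries with different numbers correlated at -0.193 to 0.101 between these groups. Between the other groups, libraries with the same number correlated at -0.268 to 0.161, while WT library 2 and Usp21 KO library 1 reached 0.49. The labels state no pairing, and these correlations do not establish one. They also come from the counts that were tested, so fits with the block are alternatives only. No 2 libraries were copies of each other (chi-square per degree of freedom of at least 4.73). The 10 genes and all lists were chosen with earlier results of these data known. All 10 genes were named, with list members that passed or had the smallest p and the 5 genes most like the 10, and other genes were named after their values were seen. The erythroid marker Hbb-bs matched no row.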

Additional observations from a re-analysis of the deposited data

How the results depend on the processing

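The 15 alternatives include DESeq2 and the 2 combined settings added after seeing the data. Over them 398 single values for the 10 genes kept their sign and side of the threshold, 40 changed sign and 12 passed with the sign kept. Of the 40, Klrg1 without Usp21 KO library 2 also passed by edgeR in dKO against Usp21 KO (adjusted p = 0.0461). Nfil3 without both WT library 2 and Usp21 KO library 2 did so in dKO against WT (adjusted p = 0.000955). Counts that passed are given in turn for Usp21 KO against WT, for dKO against WT, and for dKO against Usp21 KO. In all genes the counts were 2, 866 and 735. Leaving out 1 library gave 2 to 17, 193 to 379 and 168 to 2192, the 17 and the 2192 both without Usp21 KO replicate 2, where 23 list genes and 1 of the 10 passed in the last comparison. Over such fits the 10 genes gave 0 to 0, 0 to 0 and 0 to 1, and the list genes (0, 2 and 3 at first) 0 to 0, 1 to 2 and 0 to 23. DESeq2 gave 219, 1581 and 1728 genes, 1, 7 and 15 list genes and 1, 2 and 2 of the 10. The 6 libraries alone gave 1, 2315 and 147 genes, 0, 25 and 0 list genes and 0, 1 and 0 of the 10. Leaving out WT library 2 and Usp21 KO library 2 together, chosen after seeing the data, gave 18, 1812 and 2765 genes, 1, 20 and 28 list genes and 0, 2 and 2 of the 10. The replicate block gave 2, 606 and 461 genes, 0, 1 and 2 list genes and 0 of the 10 in each. The block with the 6 libraries alone, added after seeing the data, gave 0, 2961 and 8 genes, 0, 35 and 0 list genes and 0, 2 and 0 of the 10. No filter gave 40 genes for Usp21 KO against WT and 4 list genes for dKO against WT, where the stricter filter gave 1. Library totals gave 4 and 5 list genes in the dKO comparisons, 1 of the 10 (Irf4) against WT, and 77.4% and 69.9% of calls higher in place of 52.1% and 34.7%. The cause of these differences was not tested.

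Signs changed as follows. For Usp21 KO against WT, single omissions gave -0.17 to 0.50 for Prdm1, -0.11 to 0.41 for Batf, -0.20 to 1.25 for Klrg1, -0.51 to 1.25 for Areg, -0.44 to 0.63 for Nfil3 and -0.23 to 0.73 for Id2. Without both libraries 2 the values were -0.11 for Prdm1, -0.11 for Batf, -0.22 for Klrg1, 0.44 for Nfil3 and -0.16 for Id2, and Nfil3 was 0.05 with the block in 6 libraries. For dKO against WT, single omissions gave -0.02 to 0.15 for Prdm1, -0.45 to 0.62 for Nfil3, -0.08 to 0.05 for Id2 and -0.14 to 0.18 for Ccr8. Without both libraries 2 Nfil3 was 0.64 and Id2 0.06, Id2 was 0.08 with library totals, and Nfil3 was 0.03 with the replicate block and 0.07 with the block in 6 libraries. For dKO against Usp21 KO, single omissions gave -0.42 to 0.25 for Prdm1, -1.11 to 0.09 for Il1rl1, -0.89 to 0.56 for Klrg1, -0.12 to 0.18 for Nfil3 and -0.75 to 0.21 for Id2. Without both libraries 2 these were 0.26, 0.10, 0.57, 0.19 and 0.22, and Nfil3 was 0.09 with library totals, 0.03 with the replicate block and 0.01 with the block in 6 libraries. Depth limits Areg and Pparg most, at 22 to 341 counts per library.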
